A study of Mus musculus with 32 samples.

Results

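Whole colon of *Dnase1l3*-KO mice at the end of the AOM/DSS course (D80) was compared with whole colon of untreated *Dnase1l3*-KO mice (D0). The groups were taken from the labels, which give 4 mice at D80 and 4 at D0, with 1 library per mouse, out of 32 libraries in the series. All mice compared carried the constitutive, whole-body *Dnase1l3* deletion (genotype "DNase MUT" in the labels), which by its design is not limited to any cell type. D80 mice had received azoxymethane (AOM) and 3 cycles of dextran sulfate sodium (DSS), and D0 mice had received neither. Of 55291 gene symbols in the counts, 19031 were expressed highly enough in these 8 libraries to be tested, and the change is given as D80 over D0. Where a result turned on stage, genotype or tissue, it was set beside KO colon after 1 cycle (D19, 4 mice), tumors of KO mice at the end of the course (3 mice), and WT colon at D80 and at D0 (4 mice each). The D80 colon was extracted whole, and whether visible tumors were taken out first is not given in the sources used here.

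AOM is a colon carcinogen that is activated in the body and alkylates DNA, and DSS in drinking water strips and ulcerates the colon epithelium. Given together in repeated cycles, they drive rounds of injury, leukocyte entry and repair, and tumors with an active Wnt pathway grow mainly in the distal mouse colon. DNASE1L3 is a secreted nuclease, made largely by dendritic cells and macrophages, that digests DNA and chromatin released by dying cells.

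The 8 libraries held 27663690 to 43815431 counts at D80 and 32840426 to 40391830 at D0. On the 1000 most variable genes the first principal component held 85.5% of the variance and separated the stages without overlap. The second held 5.52% and set mouse 535 (-27.2) apart from the other 3 D80 mice (5.05 to 14.7). Epithelial RNA was present in all 8 libraries, although *Cdx2* and *Car1*, also chosen as checks of colon epithelium, were lower at D80 (values below). *Epcam*, an epithelial adhesion molecule, measured 1432, 1398, 1317 and 1390 CPM (counts scaled to library size) in D80 colon of mice 527, 535, 543 and 544, against 1360, 1635, 1436 and 1560 CPM in D0 colon of mice 852, 853, 915 and 872. The per-mouse values below keep this order. *Hoxb13*, which marks the distal colon, measured 123, 89.5, 67.8 and 91.0 CPM at D80 against 139, 154, 127 and 4.0 CPM at D0, so the D0 library of mouse 872 stood apart. *Amy2a5*, a pancreatic amylase, measured 1408 CPM in the D80 library of mouse 543 and at most 1.07 CPM in the other 7 libraries. *Dnase1l3* itself (GRCm38 chromosome 14, 7964533 to 7994573, minus strand) measured 3.24, 3.09, 3.99 and 11.8 CPM at D80, against 5.02, 3.0, 3.29 and 1.64 CPM at D0. These counts cover the whole gene and not the deleted part, so they do not test the genotype labels. The label prefixes of the mice (74 to 76 at D80, 123 to 134 at D0) are not shared between the stages, so litter, age or handling cannot be told apart from the stage.

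A trend with transcript length ran through the comparison. When 14705 protein-coding genes were cut into 5 equal groups by their longest annotated transcript, the median log2 fold change was -0.28 in the shortest group (204 to 1953 bases) and 0.34 in the longest (5244 bases and over). The same score by library, shortest minus longest group, lay between -0.363 and -0.285 at D80 and between 0.109 and 0.486 at D0. Results for the lists of the shortest transcripts, and for some other lists, are therefore given below also after a length correction. It removed from each library the loess trend, on transcript length, of the deviation of each gene's log2 CPM from its mean. This alternative was chosen after seeing the data. Genes without a protein-coding length, such as immunoglobulin genes, were left uncorrected.

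**Figure D1:**
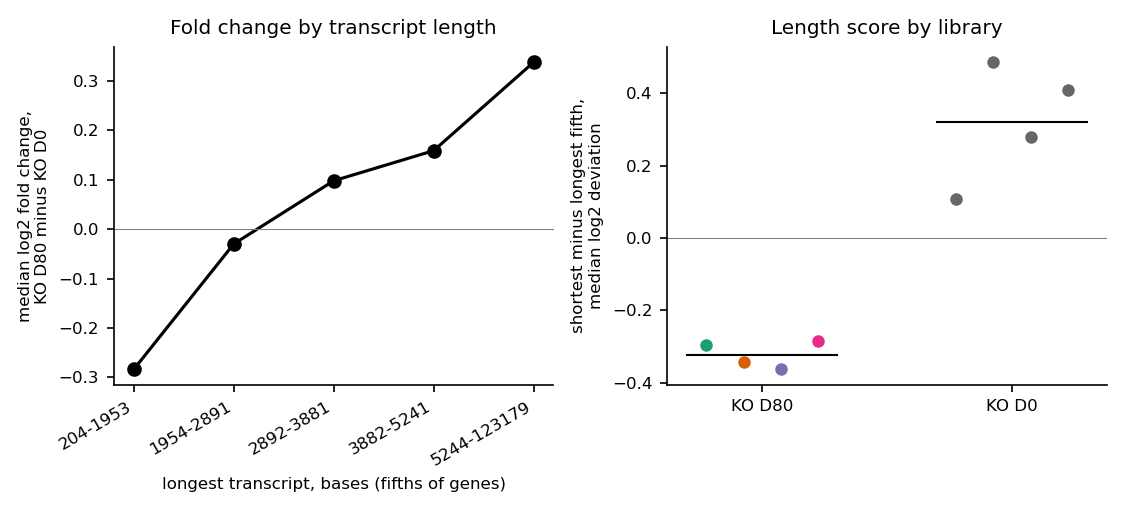
Left, median log2 fold change of D80 over D0 in KO colon (vertical axis) in 5 equal groups of protein-coding genes by longest transcript in bases (horizontal axis), with -0.28 in the shortest group and 0.34 in the longest. Right, the shortest-minus-longest score in log2 units of each library, with the mean as a line: the 4 D80 libraries sit between -0.363 and -0.285 and the 4 D0 libraries between 0.109 and 0.486.

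With thresholds of 0.05 on the adjusted p and 2 on the fold change, 2553 genes (13.4% of those tested) were higher at D80 and 1453 (7.63%) were lower. Over all tested genes the median log2 fold change was 0.02 (quartiles -0.44 and 0.52), which is the background for each gene list below. The count was 4401 genes in all without D80 mouse 535 and 4072 without D0 mouse 872, against 4006 with both. The D80 and D0 groups did not overlap for 2441 of the genes called higher and 1239 of those called lower. Among all tested genes, called or not, every D80 mouse lay above every D0 mouse for 5501 and below for 3879. Genes of neutrophils, monocytes and macrophages, lymphocytes, plasma cells, mast cells, MHC class II and IFN-γ responses, matrix turnover and the Wnt pathway were higher at D80. Genes of surface colonocytes, drug and fatty acid metabolism, enteroendocrine cells and smooth muscle were lower, as were genes of mitochondrial respiration, most of whose calls were lost after the length correction. In whole tissue a larger share of a cell type and more RNA per cell of that type cannot be told apart.

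**Figure D2:**
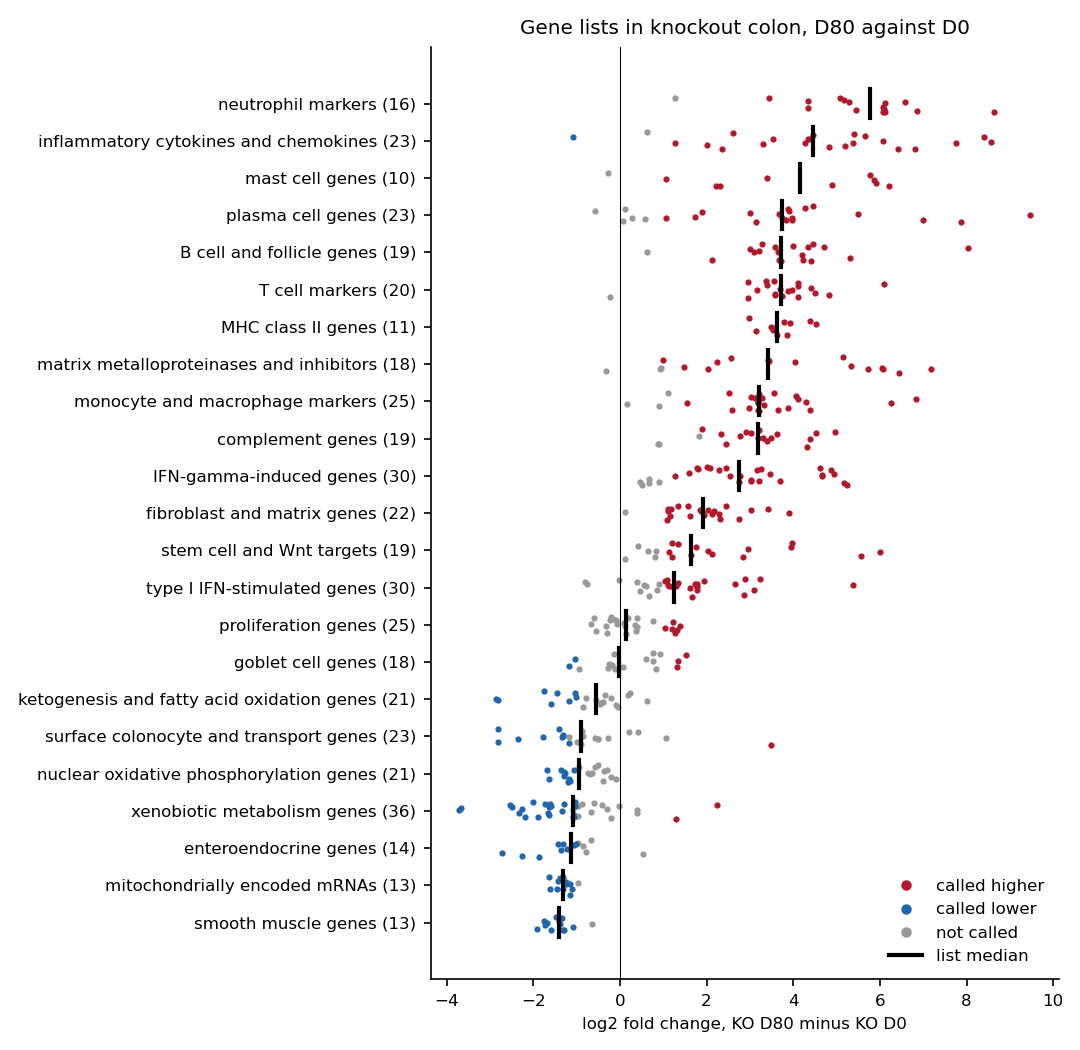
Log2 fold change of D80 over D0 in KO colon (horizontal axis) of each tested member of 23 gene lists (vertical axis, number of tested members in brackets), with the list median as a black bar and genes called higher, lower or neither in red, blue and gray. Neutrophil markers had the highest of the plotted medians (5.76) and smooth muscle genes the lowest (-1.40).

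Myeloid genes rose together. Of 16 tested neutrophil markers (of 23 listed), 15 were called higher and none lower (median log2 fold change 5.76), and 16 were higher after the length correction (median 5.97). With at least 10 counts required in each library, 3 of these markers remained and the median was 3.47. *Csf3r*, the receptor for the neutrophil growth factor G-CSF, measured 10.8, 10.4, 6.55 and 7.46 CPM at D80, against 0.478, 0.145, 0.233 and 0.117 CPM at D0 (log2 fold change 5.07, SE 0.38, adjusted p = 9.35e-06). *S100a8*, a subunit of the antimicrobial protein calprotectin, measured 75.9, 10.2, 24.4 and 7.98 CPM at D80 against 0.345, 0.579, 0.130 and 0.175 CPM at D0. Mouse 527 was by far the highest for it, and the log2 fold change was 6.59 with that mouse (SE 0.89, adjusted p = 0.000223) and 5.53 without it. *Clec4e*, a receptor for dead cells and mycobacterial glycolipids, gave 654 counts over the D80 libraries and 1 count over the D0 libraries, a ratio of 614 after scaling to depth (95% counting interval 110 to 24270). The single D0 count came from mouse 915.

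Of 25 tested monocyte and macrophage markers, 22 were called higher and none lower (median log2 fold change 3.21). *Lyz2*, the lysozyme of macrophages and neutrophils, was abundant at both stages, with 682, 758, 568 and 851 CPM at D80 and 69.6, 81.7, 62.7 and 62.1 CPM at D0 (log2 fold change 3.33, SE 0.16, adjusted p = 1.71e-06). *Csf1r*, the receptor that macrophages need to survive, rose by 3.21 log2 units (SE 0.19), and *Gpnmb*, a glycoprotein of lipid-laden macrophages, by 4.39 (SE 0.20). Of 16 dendritic cell markers, 15 were called higher and none lower (median log2 fold change 2.51). *Itgax*, which encodes CD11c, measured 27.7, 30.1, 22.9 and 34.4 CPM at D80 against 2.02, 2.60, 2.38 and 1.93 CPM at D0 (log2 fold change 3.64, SE 0.16, adjusted p = 1.5e-06). *Ccr7*, the receptor that guides mature dendritic cells and naive lymphocytes to lymph, rose by 4.88 (SE 0.31) on the log2 scale.

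Lymphocyte genes rose as well. Of 20 T cell markers, 19 were called higher and none lower (median log2 fold change 3.72). *Cd4*, the coreceptor of helper T cells, measured 14.8, 22.0, 11 and 16.5 CPM at D80 and 0.824, 1.27, 1.22 and 0.935 CPM at D0 (log2 fold change 3.88, SE 0.25, adjusted p = 4.25e-06). Of 13 tested cytotoxic lymphocyte markers, 11 were called higher both without the length correction (median log2 fold change 2.55) and with it (median 2.89), but their levels stayed low. *Gzmb*, the granule protease granzyme B, averaged 3.88 CPM at D80 and 0.269 CPM at D0, and *Nkg7*, another granule protein, averaged 1.85 CPM at D80 and 0.246 CPM at D0. Of 19 B cell and follicle genes, 18 were called higher and none lower (median log2 fold change 3.73). *Cd79a*, a chain of the B cell receptor, measured 26.4, 38, 11 and 17.6 CPM at D80 against 0.638, 1.81, 1.14 and 0.730 CPM at D0 (log2 fold change 4.41, SE 0.45, adjusted p = 4.4e-05). All 11 MHC class II genes were called higher (median log2 fold change 3.63), also after the length correction (median 3.90). *H2-Eb1*, a chain of the I-E molecule (in C57BL/6 mice its partner chain is missing), measured 298, 602, 247 and 486 CPM at D80 and 30.4, 47.1, 32.6 and 27.5 CPM at D0. *Ciita*, the factor that switches these genes on, rose by 4.52 log2 units (SE 0.30, adjusted p = 4.84e-06).

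Immunoglobulin transcripts took 1.25 to 3.03% of all counts in D80 colon and 0.0391 to 0.1365% in D0 colon. Of 201 tested immunoglobulin gene segments (381 in the counts), 195 were called higher and 0 lower. The expression filter passes segments that are high in the D80 libraries alone, and immunoglobulin was scarce at D0. The count of segments is therefore not separate support for the rise. V segments are near-identical copies, so reads may be split between them. The IgG heavy chains had the largest changes among the plasma cell genes, of which 18 of 23 were called higher (median log2 fold change 3.73). *Ighg2c* (GRCm38 chromosome 12, 113285325 to 113288932, minus strand), the heavy chain of an IgG class that IFN-γ induces in mice, measured 258, 248, 68.2 and 224 CPM at D80 and 0.133, 0.362, 0.363 and 0.234 CPM at D0 (log2 fold change 9.47, SE 0.55, adjusted p = 3.39e-06). *Ighg1*, a heavy chain class linked to IL-4, measured 164, 529, 95.9 and 221 CPM at D80 against 2.10, 4.63, 0.777 and 0.409 CPM at D0. Its log2 fold change of 6.99 was 6.34 without D80 mouse 535 and 7.77 without D0 mouse 853, and it stayed called in both. *Igha*, the heavy chain of the IgA secreted into the gut, was the most abundant of the 3, with 7893, 10430, 4141 and 7000 CPM at D80 and 376, 422, 516 and 160 CPM at D0 (log2 fold change 4.27, SE 0.42, adjusted p = 3.38e-05).

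The IgG heavy chains were tested between the late and the early stage of the course as well. *Ighg2c* measured 68.2 to 258 CPM at D80 and 1.08 to 3.41 CPM at D19, a difference of 6.72 log2 units (SE 0.58, adjusted p = 0.00223). *Ighg1* measured 95.9 to 529 CPM at D80 and 4.49 to 6.89 CPM at D19, a difference of 5.49 (adjusted p = 0.00457). *Igha* was not called between these stages (log2 fold change 2.81, adjusted p = 0.083).

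**Figure D3:**
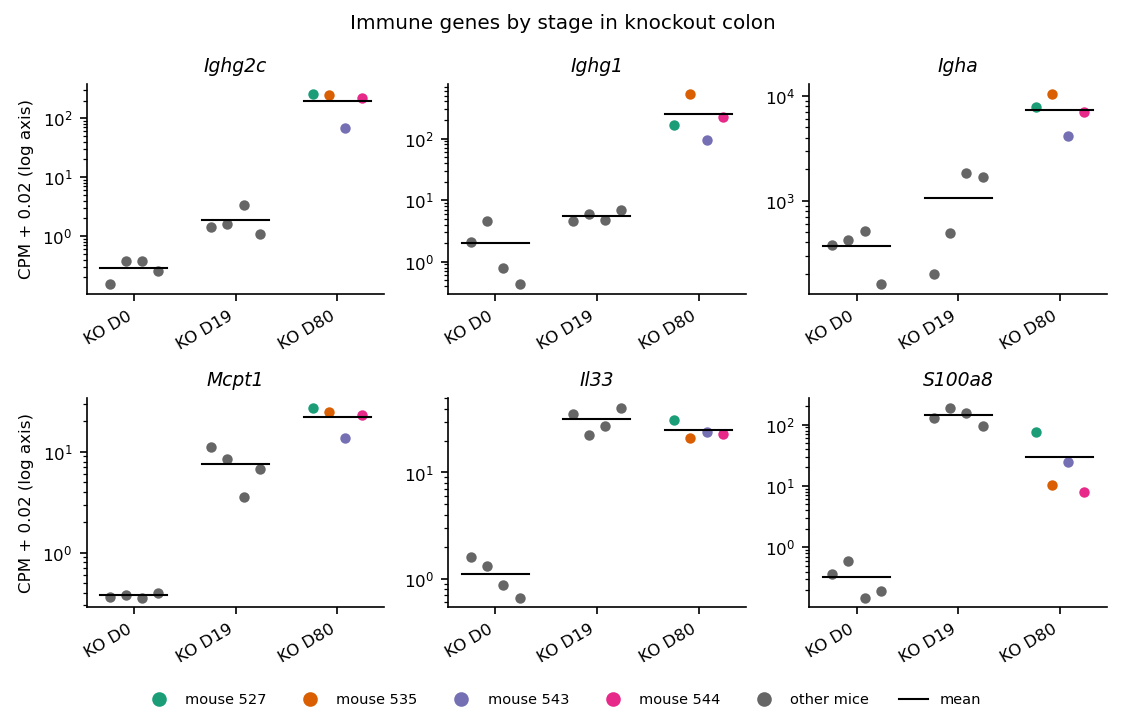
Level in CPM (vertical axes, log scale, with 0.02 added) of 6 immune genes in each KO colon library at D0, D19 and D80 (horizontal axes, 4 mice each), with group means as lines and D80 mice in color. *Ighg2c* lies at 0.133 to 0.363 CPM at D0, 1.08 to 3.41 at D19 and 68.2 to 258 at D80, while *S100a8* has its highest values, 94.4 to 190 CPM, at D19.

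Mast cell genes and genes of type 2 immunity were also higher. Of 10 tested mast cell genes, 9 were called higher and none lower (median log2 fold change 4.15), and 8 were higher after the length correction (median 4.21). With at least 10 counts required in each library, 3 of them remained and the median was 1.10. The summed level of the listed mast cell genes was 73.0 to 129 CPM at D80 and 48.3 to 67.4 CPM at D0. *Mcpt1*, a chymase of the mast cells that lie within gut epithelium, measured 27.5, 24.8, 13.7 and 23.0 CPM at D80 and 0.345, 0.362, 0.337 and 0.380 CPM at D0 (log2 fold change 5.91, SE 0.26, adjusted p = 1.5e-06). *Mcpt4*, the chymase of connective tissue mast cells, gave 282 counts over the D80 libraries and 3 over the D0 libraries, a ratio of 88.2 (95% counting interval 29.9 to 430.3). Of 10 tested type 2 and eosinophil genes (of 16 listed), 8 were called higher (median log2 fold change 3.45). *Il33*, an alarmin released by damaged epithelium and stroma that activates mast cells, measured 31.4, 20.9, 24.2 and 23.2 CPM at D80 against 1.59, 1.30, 0.855 and 0.642 CPM at D0 (log2 fold change 4.45, SE 0.27, adjusted p = 3.71e-06). *Ccl11*, an attractant of eosinophils, rose by 3.15 (SE 0.25), and *Prg2*, the major basic protein of eosinophil granules, by 3.53 (SE 0.33) on the log2 scale.

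IFN-γ-induced genes were higher in 25 of 30 members (median log2 fold change 2.76), and type I IFN-stimulated genes in 20 of 30 (median 1.26), with none of either list called lower. Several genes respond to both kinds of IFN, so the lists do not separate them. *Irgm2* and *Gbp2*, GTPases that act on membranes around intracellular microbes, are shown with their promoters because letters matching IFN-stimulated response elements (ISRE) lie near their starts. The windows run up to and just past the start that RefSeq annotates on GRCm38.p6, at chr11:58214727-58215026 (plus strand) and chr3:142620413-142620712 (plus strand). Capitals mark the ISRE letters GAAANNGAA on either strand and, in *Gbp2*, also the AP-1 letters TGANTCA; the capitals do not overlap.
Irgm2: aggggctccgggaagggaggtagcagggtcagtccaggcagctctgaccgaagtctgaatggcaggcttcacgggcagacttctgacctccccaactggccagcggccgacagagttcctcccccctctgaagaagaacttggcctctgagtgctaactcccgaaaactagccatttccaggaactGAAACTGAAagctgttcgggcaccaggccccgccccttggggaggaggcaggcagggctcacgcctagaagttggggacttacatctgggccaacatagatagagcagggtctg
Gbp2: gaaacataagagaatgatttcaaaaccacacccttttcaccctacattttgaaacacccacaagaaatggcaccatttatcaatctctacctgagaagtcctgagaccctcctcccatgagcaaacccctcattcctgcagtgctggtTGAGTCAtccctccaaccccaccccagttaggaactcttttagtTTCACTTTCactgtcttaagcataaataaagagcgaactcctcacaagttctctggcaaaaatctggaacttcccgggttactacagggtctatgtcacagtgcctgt
Counted from the start, the ISRE letters begin at -64 in *Irgm2* and at -58 in *Gbp2*, and the AP-1 letters at -102 in *Gbp2*. Such an ISRE match was present in 11 of the 21 IFN-γ-induced genes with a promoter in the table (52.4%) and in 15 of 22 type I IFN-stimulated genes (68.2%). Lists of other kinds ranged widely, with 5 of 11 DNases and DNA sensors (45.5%), 6 of 16 ribosomal protein genes (37.5%) and 0 of 20 proliferation genes. The match is therefore not limited to IFN genes. It was present in 14.3% of 1595 genes called higher and in 9.20% of 870 called lower. The share was 8.93% of 12357 tested genes and 9.76% of all 27025 genes with a promoter. For the AP-1 letters the shares were 11.5% of genes called higher, 8.74% of those called lower and 6.99% of tested genes.

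*Irgm2* measured 126, 106, 109 and 138 CPM at D80 against 19.3, 21.3, 17.6 and 21.9 CPM at D0 (log2 fold change 2.54, SE 0.11, adjusted p = 1.5e-06). *Gbp2* measured 194, 161, 132 and 145 CPM at D80 and 16.7, 24.6, 13.0 and 11.7 CPM at D0 (log2 fold change 3.22, SE 0.24, adjusted p = 8.22e-06). The D80 mice were close together for both genes and far above each D0 mouse. *Nlrc5*, the factor that switches on MHC class I genes, measured 21.6, 27.5, 20.8 and 20.5 CPM at D80 against 1.14, 0.868, 0.932 and 0.496 CPM at D0 (log2 fold change 4.66, SE 0.23, adjusted p = 1.99e-06). *Tap1*, the pump that loads peptides for MHC class I, rose by 2.75 (SE 0.12). Of the type I list, *Ifit2*, an antiviral protein, rose by 3.24 (SE 0.19) and *Usp18*, which damps type I IFN signaling, by 2.65 (SE 0.21). Of 15 tested DNases and DNA sensors, 8 were called higher and none lower. *Zbp1*, a sensor of Z-form nucleic acid, rose by 2.60 (SE 0.11), and *Tlr9*, the endosomal receptor for CpG DNA, by 3.59 (SE 0.39).

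Of 23 tested inflammatory cytokines and chemokines (of 32 listed), 21 were called higher and 1 lower (median log2 fold change 4.45). The expression filter passes genes that are high in the D80 libraries alone, so the count called higher depends in part on it. With at least 10 counts required in each library, 9 of these genes remained and the median was 2.38. *Il1b*, a pyrogenic cytokine of activated myeloid cells, measured 75.8, 46.9, 21.5 and 19.4 CPM at D80 and 0.372, 0.651, 0.389 and 0.467 CPM at D0 (log2 fold change 6.42, SE 0.53, adjusted p = 1.45e-05). *Osm*, a cytokine that activates stroma, gave 627 counts over the D80 libraries and 1 over the D0 libraries (ratio 588, 95% counting interval 105 to 23270). Its single D0 count came from mouse 915, and its D80 values were 10.4, 3.13, 1.80 and 1.38 CPM, with mouse 527 the highest. Acute phase and antimicrobial genes were split, with 10 of 22 called higher and 1 lower (median log2 fold change 0.67), counts that the length correction did not alter (median 0.81). *Saa3*, an acute phase apolipoprotein, measured 86.2, 88.5, 85.5 and 68.0 CPM at D80 against 4.09, 1.27, 1.97 and 3.30 CPM at D0 (log2 fold change 4.88, SE 0.32, adjusted p = 4.84e-06). *Wfdc2*, a protease inhibitor secreted by epithelium, was the member called lower, with 58.2, 54.6, 40.1 and 47.0 CPM at D80 and 249, 330, 266 and 184 CPM at D0 (log2 fold change -2.41, SE 0.19, adjusted p = 1.07e-05). Of 19 complement genes, 16 were called higher and none lower (median log2 fold change 3.19). *C4b*, a component of the classical pathway, measured 152, 212, 150 and 181 CPM at D80 and 10.6, 10.9, 6.27 and 6.25 CPM at D0 (log2 fold change 4.31, SE 0.24, adjusted p = 2.66e-06).

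Stromal genes changed in opposite directions by cell type. Of 22 fibroblast and matrix genes, 21 were called higher and none lower (median log2 fold change 1.92), or 16 after the length correction (median 1.59). Called higher as well were 15 of 18 matrix metalloproteinases and inhibitors (median 3.43) and 16 of 20 endothelial genes (median 1.53), with none lower. *Mmp2*, a gelatinase of fibroblasts, measured 104, 75.6, 98.1 and 113 CPM at D80 and 15.8, 17.5, 15.8 and 14.9 CPM at D0 (log2 fold change 2.57, SE 0.13, adjusted p = 1.95e-06). *Timp1*, an inhibitor of such enzymes, measured 12.3, 13.3, 10.2 and 10.3 CPM at D80 against 1.06, 1.37, 0.777 and 1.02 CPM at D0 (log2 fold change 3.41, SE 0.19, adjusted p = 2.92e-06). *Vcam1*, which captures leukocytes on activated endothelium, rose by 3.78 log2 units (SE 0.35), whereas *Pecam1*, a marker of all endothelium, rose by 1.49 (SE 0.16).

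Smooth muscle genes were lower. Of 13 such genes, 12 were called lower and none higher (median log2 fold change -1.40). *Smtn*, a structural protein of contractile smooth muscle, measured 44.3, 62.2, 57.6 and 50.5 CPM at D80 and 204, 153, 123 and 184 CPM at D0 (log2 fold change -1.67, SE 0.17, adjusted p = 4.2e-05). Of 19 tested enteric neuron and glia genes, 7 were called lower and 1 higher (median -0.59). *Gfap*, a filament of enteric glia, fell by 1.95 on the log2 scale (SE 0.35), and *S100b*, another glial marker, fell by 2.29 (SE 0.35). The member called higher was *Ret*, a receptor of enteric neurons that other cells express too (log2 fold change 1.34, SE 0.30).

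Most Wnt target genes and some Paneth cell genes were higher at D80, and mouse 535 was the lowest D80 mouse for each of those described here. Of 19 tested stem cell and Wnt target genes, 14 were called higher and none lower (median log2 fold change 1.64). *Notum* (GRCm38 chromosome 11, 120653788 to 120661175, minus strand), a secreted Wnt inhibitor that Wnt signaling itself induces, measured 26.4, 2.55, 30.6 and 23.9 CPM at D80 against 0.213, 0.362, 0.337 and 0.350 CPM at D0 (log2 fold change 5.99, SE 0.75, adjusted p = 0.000142). *Wif1*, another secreted Wnt inhibitor, measured 82.5, 8.47, 82.3 and 108 CPM at D80 and 1.44, 1.08, 1.37 and 1.84 CPM at D0 (log2 fold change 5.56, SE 0.70, adjusted p = 0.000143). *Lgr5*, the receptor that marks crypt base stem cells, measured 34.9, 8.77, 30.2 and 34.6 CPM at D80 and 3.32, 4.45, 3.78 and 2.98 CPM at D0 (log2 fold change 2.85, SE 0.39, adjusted p = 0.000224). The value of mouse 535 was the lowest of the D80 mice for each of these genes and still above all D0 mice. For *Nkd1*, an intracellular Wnt inhibitor, mouse 535 fell within the D0 range, with 68.4, 14.2, 79.8 and 81.9 CPM at D80 against 21.8, 23.1, 12.2 and 18.9 CPM at D0 (log2 fold change 1.64, SE 0.45, adjusted p = 0.012). The list mean was 3.86 in log2(CPM + 1) units in mouse 535, 5.14 to 5.28 in the other 3 D80 mice and 3.10 to 3.27 in the D0 mice. The KO tumor libraries of the series came from mice 527, 543 and 544 and none came from mouse 535.

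Genes of Paneth cells, which secrete antimicrobial peptides in the small intestine and are scarce in healthy mouse colon, made up much of the largest increases, since 9 of the 12 named for size were alpha-defensins. Over the list of small intestine and Paneth cell genes (23 listed), 5 of 14 tested members were called higher and 4 lower (median log2 fold change 0.44), or 5 and 3 after the length correction (median 0.44), and *Fabp2*, a gene of absorptive cells, was among those lower. *Mmp7*, the protease that activates mouse defensins, measured 279, 26.1, 195 and 309 CPM at D80 against 0.850, 1.12, 1.42 and 2.02 CPM at D0 (log2 fold change 7.17, SE 0.76, adjusted p = 5.27e-05). *Lyz1*, the lysozyme of Paneth cells, measured 786, 81.5, 439 and 1286 CPM at D80 and 7.71, 11.8, 5.49 and 8.12 CPM at D0 (log2 fold change 6.25, SE 0.77, adjusted p = 0.000126). *Defa24* (GRCm38 chromosome 8, 21734494 to 21735471, plus strand), an alpha-defensin, measured 113, 1.5, 69.0 and 397 CPM at D80 and 0.372, 0.362, 0.259 and 0.409 CPM at D0 (log2 fold change 8.64, SE 1.48, adjusted p = 0.000872). Without mouse 544 its log2 fold change was 7.39, and under limma voom with sample quality weights it was not called (adjusted p = 0.0716). The other 8 alpha-defensins among the largest increases had fitted log2 fold changes of 8.56 to 9.09 (*Defa30* to *Defa32*), are near-identical copies whose reads may be split, and were likewise not called under voom. Without mouse 544 those 8 had log2 fold changes of 6.94 (*Defa2*) to 7.71 (*Defa3*). In 3 KO tumors of mice 527, 543 and 544, *Defa24* measured 112, 314 and 1223 CPM, and *Notum* 108, 130 and 96.0 CPM.

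**Figure D4:**
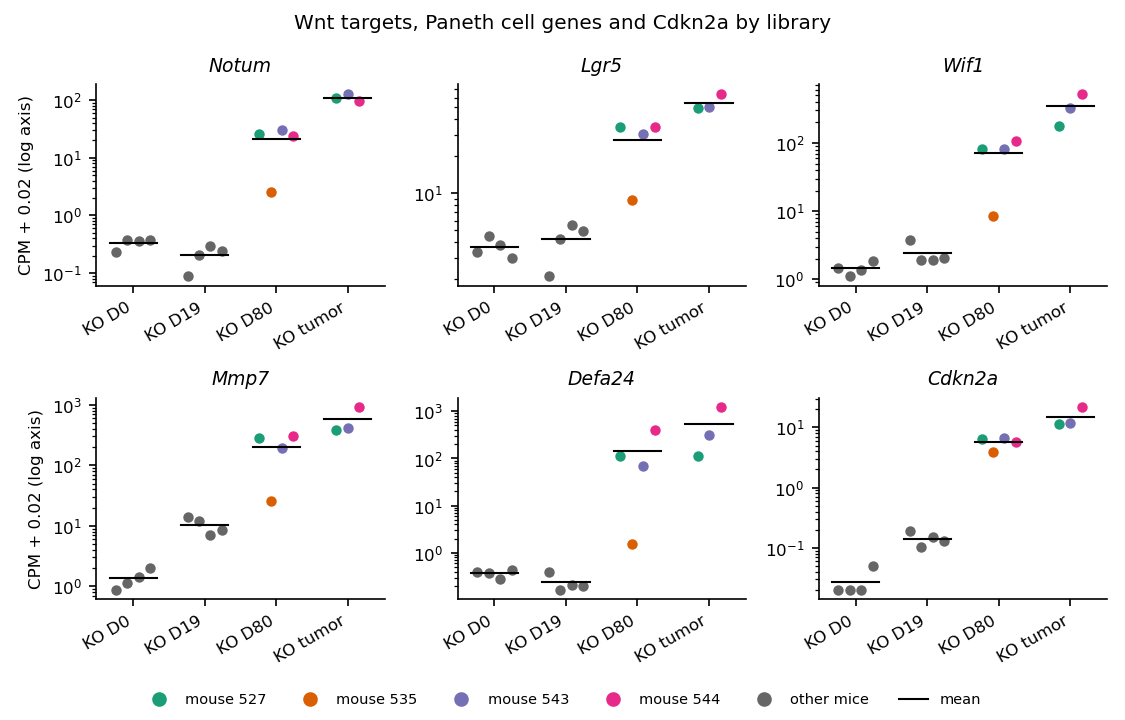
Level in CPM (vertical axes, log scale, with 0.02 added) of 6 genes in each KO library of D0, D19 and D80 colon (4 mice each) and of tumors (3 mice), with group means as lines and mice 527, 535, 543 and 544 in color. Mouse 535 has the lowest D80 value in all 6 panels (2.55 CPM for *Notum*, against 23.9 to 30.6 CPM in the other 3 D80 mice), and no tumor library came from it.

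*Cdkn2a* (GRCm38 chromosome 4, 89274471 to 89294653, minus strand), the locus of the cell cycle inhibitors p16INK4A and p19ARF, was nearly absent at D0. It measured 6.37, 3.92, 6.59 and 5.71 CPM at D80, against 0, 0, 0 and 0.0292 CPM at D0. These were 809 counts over the D80 libraries and 1 over the D0 libraries, a ratio of 759 (95% counting interval 136 to 30020). At D19 it measured 0.0823 to 0.169 CPM, and D80 exceeded D19 by 5.51 log2 units (SE 0.33, adjusted p = 0.000511). It was higher in all 4 D80 mice, mouse 535 included. Of 25 proliferation genes, 6 were called higher and none lower (median log2 fold change 0.13). *Top2a*, a topoisomerase of dividing cells, measured 169, 115, 164 and 157 CPM at D80 and 63.5, 63.9, 60.6 and 54.9 CPM at D0 (log2 fold change 1.27, SE 0.13, adjusted p = 4.12e-05), but was not called in a single fit of all 24 colon libraries (adjusted p = 0.0991). *Mcm4*, part of the replication helicase, rose by 1.40 (SE 0.14). *Mki67*, a marker of cycling cells, measured 92.5, 88.5, 151 and 99.7 CPM at D80 and 115, 82.7, 104 and 67.6 CPM at D0, with overlapping groups (log2 fold change 0.18, SE 0.21, adjusted p = 0.507). Of 16 p53 targets, 3 were called higher and none lower (median 0.27). Of 22 fetal-like and regenerative epithelium genes, 14 were called higher (median 1.51), among them *Clu*, a chaperone of revival stem cells (log2 fold change 3.61, SE 0.33), and *Cd44*, a hyaluronan receptor and Wnt target (1.33, SE 0.11). *Il33*, counted above with type 2 genes and cytokines, is on this list too, and *Cd44* is also counted with the Wnt targets. Whether the rise of these genes lay in epithelium was not tested.

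Genes of the mature colon surface were lower, and mouse 535 was the D80 mouse nearest to D0 for several of them. D0 mouse 872, low in *Hoxb13*, was the highest D0 mouse for *Guca2a*, *Car1* and *Cdx2*. Its mean over the surface colonocyte list was 8.065 in log2(CPM + 1) units, against 8.066 to 8.196 in the other D0 mice. The part of the sampled colon region was not tested. Of 23 tested surface colonocyte and transport genes, 9 were called lower and 1 higher (median log2 fold change -0.89). After the length correction 12 were called lower and 1 higher (median -1.08). *Guca2a*, the hormone guanylin that drives fluid secretion, measured 261, 688, 319 and 378 CPM at D80 and 2144, 3080, 2357 and 3672 CPM at D0 (log2 fold change -2.81, SE 0.31, adjusted p = 7.3e-05). *Car1*, a carbonic anhydrase of colonocytes, measured 245, 597, 469 and 633 CPM at D80 against 1980, 1247, 4153 and 5809 CPM at D0 (log2 fold change -2.81, SE 0.49, adjusted p = 0.000951). *Slc16a1*, a carrier of the butyrate on which colonocytes feed, fell by 1.41 on the log2 scale (SE 0.17). *Cdx2*, the transcription factor of intestinal identity, measured 70.0, 106, 91.3 and 90.8 CPM at D80 and 182, 190, 234 and 249 CPM at D0 (log2 fold change -1.30, SE 0.15, adjusted p = 8.71e-05).

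Xenobiotic metabolism genes, which detoxify drugs and dietary compounds, were called lower in 22 of 36 tested members and higher in 2 (median log2 fold change -1.08). *Cyp2c55* (GRCm38 chromosome 19, 39007019 to 39042693, plus strand), a cytochrome P450, measured 48.6, 328, 89.7 and 103 CPM at D80 and 1112, 886, 1718 and 3323 CPM at D0 (log2 fold change -3.66, SE 0.65, adjusted p = 0.00104). The log2 fold change of *Cyp2c55* was -4.50 without mouse 535. *Ugt2b5*, a glucuronosyltransferase whose close paralogs *Ugt2b36*, *Ugt2b37* and *Ugt2b38* were also among the largest decreases, measured 0.604, 2.64, 1.27 and 1.97 CPM at D80 and 14.3, 5.35, 20.7 and 42.6 CPM at D0 (log2 fold change -3.70, or -3.11 without D0 mouse 872, which was the highest). Against the list, *Ahr*, the receptor for dietary and bacterial indoles, rose by 1.30 log2 units (SE 0.12, adjusted p = 2.5e-05). Of 21 tested ketogenesis and fatty acid oxidation genes, 8 were called lower and none higher (median -0.54). *Fabp2*, a fatty acid carrier of enterocytes, measured 55.0, 228, 88.1 and 112 CPM at D80 and 676, 494, 947 and 1268 CPM at D0 (log2 fold change -2.85, SE 0.45, adjusted p = 0.000533). *Acads*, the dehydrogenase of short-chain fatty acids, measured 72.0, 84.0, 83.0 and 79.4 CPM at D80 against 184, 204, 242 and 301 CPM at D0 (log2 fold change -1.59, SE 0.15, adjusted p = 2.53e-05).

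Of 14 tested enteroendocrine genes, 9 were called lower and none higher (median log2 fold change -1.14), and 6 were lower after the length correction. *Sst*, the hormone somatostatin, measured 2.66, 5.36, 4.53 and 3.62 CPM at D80 and 14.9, 14.7, 12.1 and 15.4 CPM at D0 (log2 fold change -1.86, SE 0.20, adjusted p = 6.42e-05), and *Chga*, a protein of hormone granules, fell by 1.21 (SE 0.21). Goblet cell genes were mixed, with 3 of 18 called higher and 2 lower and a median of -0.03, and the median was 0.62 after the length correction. *Agr2*, a disulfide isomerase needed for mucin, fell by 1.18 on the log2 scale (SE 0.20), a call lost after the length correction. *Fer1l6*, a ferlin family member, rose by 1.53 (SE 0.32). Of 15 tested tuft cell genes, 5 were called lower and 1 higher (median -0.38).

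**Figure D5:**
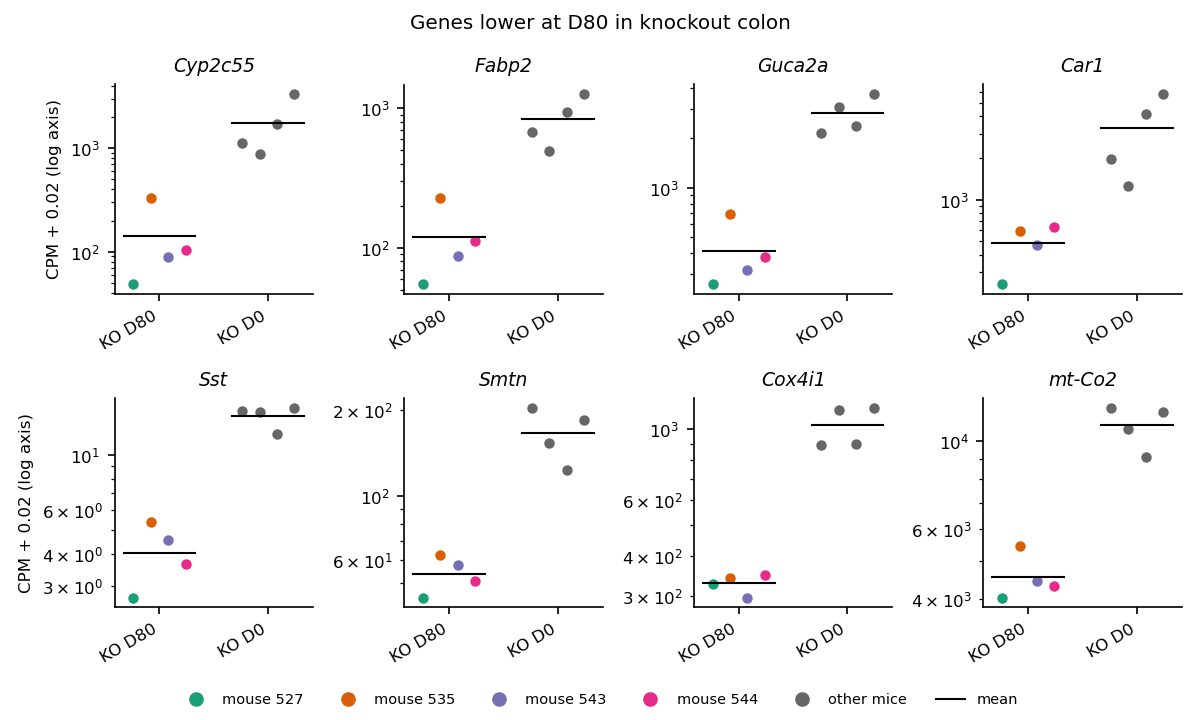
Level in CPM (vertical axes, log scale, with 0.02 added) of 8 genes called lower at D80, in each D80 and D0 library of KO colon (4 mice each), with group means as lines and the D80 mice in color. No D80 value reaches the D0 range in any panel, and mouse 535 is the highest D80 mouse for *Cyp2c55* (328 CPM), *Fabp2* (228 CPM) and *Guca2a* (688 CPM).

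Respiratory chain genes were lower from both genomes, and both sets are short transcripts. Mitochondrially encoded mRNAs took 4.44 to 5.84% of counts at D80 and 8.53 to 11.2% at D0, and 12 of 13 were called lower (median log2 fold change -1.31). *mt-Co2*, a subunit of cytochrome c oxidase, measured 4039, 5435, 4442 and 4333 CPM at D80 and 12130, 10710, 9117 and 11810 CPM at D0 (log2 fold change -1.31, SE 0.16, adjusted p = 0.00011). Of 21 nuclear oxidative phosphorylation genes, 10 were called lower and none higher (median -0.93). *Cox4i1*, the nuclear partner of *mt-Co2* in the same complex, measured 328, 341, 296 and 350 CPM at D80 against 894, 1152, 898 and 1170 CPM at D0 (log2 fold change -1.69, SE 0.12, adjusted p = 7.29e-06). Ribosomal protein mRNAs, which are short as well, had a median of -0.66, with 1 of 24 called lower. After the length correction, 1 of 13 mitochondrially encoded mRNAs (median -0.71), 3 of 21 nuclear oxidative phosphorylation genes (median -0.68) and 0 of 24 ribosomal protein genes (median -0.29) were called lower. The part of the length trend in these results was not tested. For xenobiotic metabolism and smooth muscle genes (median lengths 2231 and 3948 bases) the correction changed little, with 21 of 36 and 11 of 13 called lower. Fibroblast and matrix genes, the list of the longest transcripts (median 5385 bases), lost calls, with 16 of 22 called higher after the correction. The 2 genes with the largest decreases were *Mir6236* (34.4, 26.4, 42.1 and 52.8 CPM at D80, against 773, 1696, 770 and 1354 CPM at D0) and *Lars2* (log2 fold change -4.21, SE 0.26). In mouse annotation both hold stretches like ribosomal RNA, so their counts are uncertain.

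Genes of the circadian clock changed in opposite directions. *Arntl*, which encodes the activator BMAL1, measured 10.1, 7.61, 6.11 and 5.99 CPM at D80 against 44.1, 36.5, 29.3 and 36.2 CPM at D0 (log2 fold change -2.34, SE 0.19, adjusted p = 1.33e-05). *Npas2*, a partner of BMAL1, fell by 2.52 on the log2 scale (SE 0.22). *Dbp*, a target that cycles opposite to *Arntl*, measured 19.6, 34.9, 31.2 and 26.2 CPM at D80 against 2.29, 1.34, 5.59 and 5.64 CPM at D0 (log2 fold change 2.86, SE 0.41, adjusted p = 0.000322). Of 18 clock genes, 8 were called higher and 3 lower. The hour at which each mouse was killed is not given in the sources used here, so hour and stage cannot be told apart. None of 9 tested posterior Hox genes was called (median log2 fold change -0.23), with *Hoxb13* at -0.24 (adjusted p = 0.796). Of 10 tested anterior Hox genes 3 were called lower, among them *Hoxb6* (log2 fold change -2.29, SE 0.53) and *Hoxb5* (-2.05, SE 0.36), which mark more proximal gut.

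The late stage was then compared with the early stage of the same course in KO colon. Of 19523 genes tested, 237 (1.21%) were higher and 86 (0.441%) lower at D80 than at D19. This count depended on single libraries, and was 38 without D19 mouse 813 or without D19 mouse 804, 48 without D80 mouse 544, 87 without D19 mouse 803, 101 without D80 mouse 527, and 140 without D80 mouse 543. D19 mouse 811 had a length score of 1.96, against -0.216 to -0.015 in the other D19 mice, and without it 452 genes were called. Of 19 stem cell and Wnt target genes, 10 were higher at D80 than at D19 (median log2 fold change 2.05), as were 8 of 23 plasma cell genes (median 1.51) and 5 of 14 small intestine and Paneth cell genes (median 0.73). *Notum*, for instance, measured 2.55 to 30.6 CPM at D80 and 0.0675 to 0.279 CPM at D19 (log2 fold change 6.71, SE 0.80, adjusted p = 0.0114). *Itln1*, a lectin that binds microbial sugars, measured 38.4 to 133 CPM at D80 and 0.536 to 1.62 CPM at D19 (log2 fold change 6.62, SE 0.57, adjusted p = 0.00223).

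Some neutrophil markers and cytokines were lower at D80 than at D19. Of 16 neutrophil markers, 4 were lower at D80 (median log2 fold change -1.42), as were 4 of 23 cytokines and chemokines (median -1.28). *Saa3* measured 68.0 to 88.5 CPM at D80 and 394 to 570 CPM at D19 (log2 fold change -2.56, SE 0.23, adjusted p = 0.00243), and *Timp1* measured 10.2 to 13.3 CPM at D80 and 35.4 to 103 CPM at D19 (-2.71, SE 0.33, adjusted p = 0.012). *Spon2*, a matrix protein that binds bacterial products, was lower at D80 than at D19 (-2.23, SE 0.22, adjusted p = 0.00453) but close to its D0 level. Both contrasts use the D80 libraries, so they are not independent of each other.

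The same contrast in WT colon called 1303 genes higher and 599 lower at D80 of 18419 tested. Whether the D80 change differed between the genotypes was tested as an interaction over the 16 libraries of both. No gene of 19668 passed (0% called), with a lowest adjusted p of 0.165, although without adjustment 1542 genes lay under 0.05, and 33 were called by DESeq2 (9 with a higher and 24 with a lower change in KO). Without D0 mouse 872, the KO library low in *Hoxb13*, 12 genes were called, and without WT D80 mouse 542, 3 were. A gene that missed the threshold is not thereby shown to respond alike in both genotypes. Median log2 fold changes in KO and in WT were 5.76 and 4.04 for neutrophil markers, 3.73 and 3.72 for plasma cell genes, 1.64 and 0.72 for stem cell and Wnt target genes, and -1.40 and -1.77 for smooth muscle genes. WT D80 mouse 581 stood apart, with a length score of 2.16 and a stem cell and Wnt target mean of 2.47 in log2(CPM + 1) units, against 3.83 to 4.84 in the other WT D80 mice and 3.18 to 3.25 in WT D0 mice. Without it, in a fit added after seeing the data, 2029 genes were higher and 1153 lower in WT, and the WT medians were 4.36 for neutrophil markers, 3.69 for plasma cell genes, 0.87 for stem cell and Wnt target genes and -1.68 for smooth muscle genes. The interaction called 0 genes without that mouse too. *Ighg2c* rose by 9.47 log2 units in KO and 9.57 in WT colon, and *Cdkn2a*, which had no count in WT D0 colon, measured 1.01 to 4.12 CPM in WT D80 colon.

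Among the genes with a larger change in KO and the lowest unadjusted interaction p was *Timp1*, whose KO values are given above. In WT colon it measured 3.39 to 6.48 CPM at D80 and 1.03 to 3.25 CPM at D0 (log2 fold change 1.27, against 3.41 in KO), and the interaction was 2.14 (SE 0.44). *Trdc*, the constant segment of the gamma-delta T cell receptor, measured 2.42, 1.63, 1.30 and 1.53 CPM at D80 and 0.133, 0.289, 0.259 and 0.175 CPM at D0 in KO colon, with an interaction of 2.51 (SE 0.44). Among those with a smaller or opposite change in KO, *Slc37a2*, a sugar phosphate carrier, had log2 fold changes of -2.14 in KO and 4.38 in WT, and *Tgm3*, a transglutaminase, -1.72 in KO and 2.31 in WT. Mouse 872, low in *Hoxb13*, had 1.87 CPM of *Slc37a2* and 69.0 CPM of *Tgm3*, against 39.1 to 148 CPM and 620 to 661 CPM in the other KO D0 mice. WT D0 colon held 7.37 to 55.1 CPM of *Hoxb13*, and the part of the sampled colon region in these differences was not tested. *Gal3st2*, a sulfotransferase with near-identical copies beside it, had the lowest unadjusted p of all (interaction -2.55, SE 0.42). None of these differences passed the adjustment. For mitochondrially encoded mRNAs the medians were -1.31 in KO and 0.01 in WT, and for ribosomal protein genes -0.66 and 0.30. Without WT D80 mouse 581 the WT medians were -1.0 for mitochondrially encoded mRNAs and -0.40 for ribosomal protein genes.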

How the data were processed

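RNA was extracted from whole colon, and TruSeq libraries were sequenced single-end on an Illumina NextSeq. The deposited values are raw counts per gene, which the authors made by checking reads with FastQC 0.11.5, aligning them with STAR to mm10 with GENCODE annotation and summing them with subread; the strand setting is not given in the sources used here. Alignment and counting were not repeated.

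Groups followed the labels. Tests used the quasi-likelihood F test of edgeR 4.0.16 (R 4.3.3, filterByExpr, TMM, legacy = TRUE) on the groups compared, with Benjamini-Hochberg adjustment over all genes tested. A call needed both thresholds, 0.05 on the adjusted p and 2 on the fold change. Each SE was obtained by dividing the log2 fold change by the root of its F statistic. CPM were scaled with TMM factors computed from the 32 libraries together. Total counts per library were 27663690 to 43815431 in KO D80 and D0 colon, and 18951121 to 47623288 over all 32 libraries. Ratios of genes with 1 to 3 D0 counts carry 95% intervals that cover counting error only. Samples of a group are separate mice, some with different label prefixes, so p-values measure the spread between these mice. Within groups the mean chi-square per gene between libraries was 30.4 or more, so replicates differed by more than sampling noise.

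Genes were named by a rule: the called genes with non-overlapping groups that had the 12 highest and the 12 lowest fold changes (mean of at least 1 CPM, without predicted genes, pseudogenes and antigen receptor segments), up to 4 with the smallest p in each of 45 lists, defining markers, genes the study names, and up to 6 in each direction with the smallest p in the other contrasts. The comparison, the lists and the rule were chosen with earlier results of these data known. Some genes that the rule names are not reported here. Positions are from GENCODE M21 on GRCm38, and promoters from RefSeq. Lists are described by counts and medians, without a test. Some lists share members, so they are not separate results: *Timp1* is on the fibroblast and metalloproteinase lists, *Lcn2* on the neutrophil and antimicrobial lists, and *C1qb* on the macrophage and complement lists.

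The fit was repeated with DESeq2 1.42.0, with RLE factors, unfiltered, with at least 10 counts in each library, legacy = FALSE, all 24 colon libraries in a single fit, omission of immunoglobulin genes, voom with sample quality weights (limma 3.58.1), *Hoxb13* as a covariate, and omission of each library in turn. Omission of mice 535 and 872 together, omission of WT D80 mouse 581 from the WT contrast and the loess length correction were added after seeing the data. The fit was tested on simulated data with known changes before use.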

Additional observations from a re-analysis of the deposited data

Results flagged for a closer look

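In 15 of 198 groups of 4 libraries examined, 1 library lay far from the other 3, where chance gives about 1 in 20. Among single genes in KO D80 colon, *Mcpt4* was highest in mouse 544 (2.118 CPM), *Nlrc5* highest in mouse 535 (27.49 CPM), *Saa3* lowest in mouse 544 (68.05 CPM), *Dnase1l3* highest in mouse 544 (11.85 CPM) and *Spon2* lowest in mouse 535 (16.98 CPM). In KO D0 colon, *Clec4e* was detected in mouse 915 (0.0259 CPM) and *Cdkn2a* in mouse 872 (0.02921 CPM), at 0 CPM in the other 3 mice for each, and *Notum* was lowest in mouse 852 (0.2126 CPM).

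Among list means in log2(CPM + 1) units, the stem cell and Wnt target mean was 3.864 in D80 mouse 535 and 5.14 to 5.28 in the other 3 D80 mice. The p53 target mean was 4.532 in the same mouse and 4.68 to 4.70 in the others. The cytokine and chemokine mean was 3.821 in D80 mouse 527 and 2.80 to 2.96 in the others. In D80 mouse 543 the mast cell mean was 2.321 against 2.64 to 2.65 in the others, and the mean of markers of mesothelium and other organs was 4.51 against 3.02 to 3.23. The amylase *Amy2a5*, at 1408 CPM in that library alone, is a member of this list. In D0 mouse 915 the surface colonocyte mean was 8.196 (others 8.065 to 8.072) and the skeletal muscle mean 1.26 (others 1.413 to 1.422), both narrow ranges.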

How the results depend on the processing

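Counts of genes called for KO D80 over KO D0 lay between 2719 (at least 10 counts in each library) and 4923 (no filter) against 4006, and between 3829 and 4401 with 1 library left out. The interaction called 33 genes with DESeq2 and 0 to 12 with 1 library left out, against 0. KO D80 over KO D19 called 838 with DESeq2 and 38 to 452 with 1 library left out, against 323. Requiring at least 10 counts in each library removes genes near 0 at D0, so list medians of log2 fold change then rest on fewer members. With the number of members left in brackets, they were 3.472 (neutrophil, 3), 2.021 (dendritic, 8), 3.286 (B cell, 10), 3.179 (plasma cell, 19), 1.103 (mast cell, 3), 3.256 (type 2, 6) and 2.381 (cytokine, 9). Others were -0.073 (tuft, 12), 3.016 (metalloproteinase, 16), 0.208 (squamous, 5), 1.683 (DNase and DNA sensor, 12), and, with reversed sign, -0.302 (skeletal muscle, 3) and -0.144 (immediate early, 19). Without immunoglobulin genes the plasma cell median was 2.377. Under voom the medians were 3.538 (T cell), 2.178 (cytotoxic), 0.746 (skeletal muscle) and 0.384 (immediate early). Without mice 535 and 872 together they were 2.998 (macrophage), 2.314 (dendritic), 1.985 (cytotoxic), 3.322 (plasma cell), 4.005 (mast cell), -1.45 (enteroendocrine), -0.776 (tuft), -1.072 (colonocyte), -0.899 (neuron and glia), 0.395 (skeletal muscle) and 1.512 (squamous). After the length correction they were 3.514 (macrophage), 2.893 (cytotoxic), 3.856 (type 2), 4.979 (cytokine), 0.621 (goblet, reversed), -1.079 (colonocyte), -0.107 (metal transport), -0.684 (nuclear respiratory chain), -0.713 (mitochondrially encoded), -0.29 (ribosomal), 0.745 (skeletal muscle), 1.594 (fibroblast) and 0.752 (clock). The causes were not tested.

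With 1 library left out, medians ranged over 3.364 to 3.631 (type 2), -0.531 to -0.316 (metal transport), -1.815 to -0.247 (adipocyte, the last without D0 mouse 852), 3.369 to 4.38 (B cell), 3.984 to 4.457 (mast cell), 0.321 to 0.715 (skeletal muscle), 0.093 to 0.353 (immediate early), 2.233 to 3.031 (cytotoxic), 4.247 to 4.858 (cytokine), 2.347 to 2.69 (DNase and DNA sensor), 0.825 to 1.388 (squamous), -1.367 to -1.044 (enteroendocrine), -0.701 to -0.217 (tuft), -1.05 to -0.841 (colonocyte) and -0.875 to -0.498 (neuron and glia). Among single genes, none of them called, the log2 fold change of *Hoxb13* was 0.264 under voom and 0.029 with itself as a covariate, that of *Hoxd12* 0.217 under voom, that of *Rasl11a* 0.010 under voom and 0.269 after the length correction, that of *Hoxa11* -0.465 to 0.036 with 1 library left out (0.036 without mouse 872) and 0.156 without mice 535 and 872, and that of *Mki67* -0.026 (without mouse 543) to 0.285 and -0.230 after the length correction. No paired analysis was possible because D80 and D0 colons came from different mice whose labels share no number. Depth limits genes with few D0 counts, whose ratios have wide counting intervals.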

Other observations

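Several further gene groups were measured in KO D80 over KO D0 colon. Of 12 tested squamous epithelium genes (of 19 listed), 6 were called higher and 1 lower (median log2 fold change 1.16). With at least 10 counts required in each library, 5 of them remained and the median was 0.21. *Krt13* and *Krt14*, keratins of stratified epithelium, rose by 4.16 (SE 0.66) and 3.52 log2 units (SE 0.68), and *Sprr2a3*, an abundant cornified envelope gene that colon also expresses, was the member called lower (-1.49, SE 0.23). Of 22 glycolysis and hypoxia genes, 2 were called higher and none lower (median 0.06). These were *Pfkfb3*, which makes an activator of glycolysis (2.90, SE 0.26), and *Slc16a3*, a lactate exporter (2.02, SE 0.25). Of 21 immediate early and stress genes, 4 were called higher and none lower (median 0.16), among them *Egr2* (3.72, SE 0.36) and *Egr3* (3.15, SE 0.31), transcription factors that are also induced in activated lymphocytes.

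Of 15 tested metal transport and metallothionein genes, 2 were called lower and none higher (median -0.37). *Slc39a5*, a zinc importer, fell by 1.27 on the log2 scale (SE 0.14). Of 11 tested adipocyte genes, 2 were called lower (median -1.54), of 6 tested skeletal muscle genes 2 were called higher and 1 lower (median 0.54), and of 9 tested markers of mesothelium and other organs 2 were called higher and 1 lower (median -0.25). *Upk3b*, a mesothelial marker, fell by 2.37 (SE 0.66), and *Alb*, the liver's serum albumin, had a log2 fold change of 2.40 (SE 0.58), while *Amy2a5* had an adjusted p of 0.575 without mouse 543.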
